A study of Mus musculus with 2 samples.

Results

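Mitosis and spindle checkpoint genes were examined as a set of 40 mouse genes, chosen by name for their roles in mitotic entry, spindle assembly, the spindle checkpoint, anaphase and cytokinesis and matched by symbol to the gene tables of 2 RNA-seq libraries. All 40 were found among the 43346 genes listed, and they carry 187 of the 103639 transcripts listed. The libraries were made from polyadenylated RNA of G1E-ER4 cells after 3 h with 17beta-estradiol at 10 nM, and they are biological replicates 1 and 2 of a single group. The line G1E-ER4 consists of immortalised erythroid progenitors of the mouse with a disrupted Gata1 gene, in which GATA1 fused to the estrogen receptor's ligand-binding domain is switched on by estradiol. Both libraries carry this background. Since both cite 1 shared record of cells, their spread may come from technique alone. Untreated cells were not analysed here, so every value is a level after estradiol and no value is a response to it. The comparison that the labels allow is replicate 1 against replicate 2.

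Mitosis is driven by CDK1 bound to cyclins A and B and is ended by the anaphase-promoting complex (APC/C), a ubiquitin ligase that marks cyclins and securin for destruction. The spindle checkpoint holds that ligase back through MAD2, BUBR1 and BUB3, which capture its activator CDC20 until every kinetochore is attached to spindle microtubules. Transcription of many of these genes is timed to late cell cycle phases by the DREAM and MuvB complexes, which bind a promoter element called the cell cycle genes homology region, or CHR. In bulk RNA, fewer cells in mitosis and less RNA of these genes per cell cannot be told apart.

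Replicate 1 held 31126956 expected counts, the estimated number of fragments per gene summed over genes, and replicate 2 held 57853617. The 40 genes took 0.530% of these counts in replicate 1 and 0.432% in replicate 2. All 8 erythroid markers reached 1 TPM in both libraries, TPM being an abundance per transcript length that sums to the same total in every library. None of the 6 granulocyte and monocyte, 6 lymphocyte or 6 fibroblast markers did so, and the mast cell and megakaryocyte lists reached it in both libraries for Hdc and Itga2b only. The summed level of the 6 granulocyte and monocyte markers was 0.80 TPM in replicate 1 and 0.080 in replicate 2, with Lyz2, Itgam and S100a8 at 0 counts. For lymphocytes it was 1.12 and 2.44, for fibroblasts 0.55 and 0.68, for mast cells 3.92 and 6.54, and for megakaryocytes 12.7 and 14.7 TPM. The libraries differed in erythroid genes, with a summed level of 4559 TPM in replicate 1 and 18752 in replicate 2: Hba-a1, an alpha globin gene, was at 149 TPM in replicate 1 and 6606 in replicate 2, and Hbb-bs, an adult beta globin gene, at 863 TPM in replicate 1 and 9484 in replicate 2. Gata1, whose product the line supplies as the fusion, was at 190.3 TPM in replicate 1 and 799 in replicate 2, lower in replicate 1 like both globin genes. Epor was at 54.8 TPM in replicate 1 and 51.5 in replicate 2, but 1.19-fold lower in replicate 1 in counts scaled to library size. Zfpm1, at 2427 TPM in replicate 1 and 1438 in replicate 2, Klf1, at 786 TPM in replicate 1 and 350.5 in replicate 2, and Tfrc, at 86.5 TPM in replicate 1 and 20.6 in replicate 2, were called higher in replicate 1. Whether these differences have a part in the differences described below was not tested.

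All 40 genes reached 1 TPM in both libraries, 24 reached 10 TPM in both and 8 reached 100 TPM in both. Over all genes listed, 20.2% reached 1 TPM in both, and over protein-coding genes 38.6% did. The median of the 40 genes was 18.4 TPM in replicate 1 and 22.6 TPM in replicate 2, and the median over the 8777 genes detected in both libraries was 20.3 TPM and 19.1 TPM. The set thus ranged from 1.83 to 1209 TPM in replicate 1 and from 1.34 to 503 TPM in replicate 2, with its middle close to that of detected genes. Across the 40 genes the 2 libraries had a Pearson correlation of 0.864 in log2(TPM + 1) and a Spearman correlation of 0.847, against 0.891 and 0.881 over all detected genes. These describe genes measured in the same pair of libraries, and genes are not independent replicates. Of the 10 highest genes in each library, 8 were shared.

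**Figure D1:**
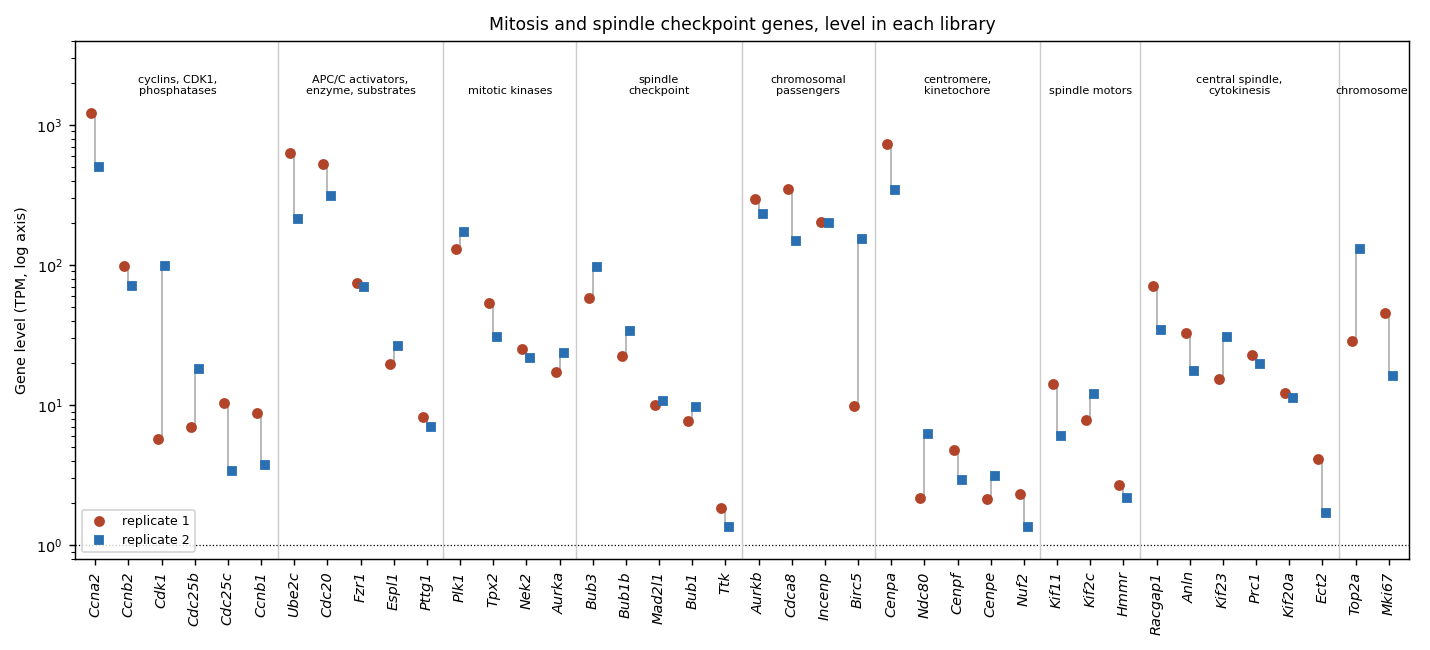
Level of the 40 genes in each library in TPM on a log axis, grouped by role, with a circle for replicate 1, a square for replicate 2 and a grey line joining them; the dotted line marks 1 TPM. Ccna2 is highest in both libraries and Ttk lowest in both, and the longest joining lines belong to Cdk1 and Birc5.

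Differences between the libraries were tested for each gene by the exact conditional binomial test, two-sided, after scaling of the library sizes by TMM factors, which assume that most genes do not differ, and Benjamini-Hochberg adjusted over the 10635 genes with a summed count of at least 20. The test compares these 2 libraries and measures counting noise only, so a call says that the libraries differ by more than the sampling of fragments. Of the 40 genes, 16 were higher in replicate 1 (40%) and 20 were lower (50%), and 4 were not called. Over all genes tested, 37.4% were called higher in replicate 1 and 43.3% lower, so the share of mitotic genes that differ was near that of the whole table. A difference of at least 2-fold in counts scaled to the same library size was reached by 3 genes higher in replicate 1 (7.50%), beside 7.32% of all genes tested, and by 6 lower in replicate 1 (15%), beside 19.5%. Without TMM factors, 5 genes were at least 2-fold higher. The median log2 ratio of scaled counts, replicate 1 over replicate 2, was -0.18 for the 40 genes and -0.06 for all genes tested. In TPM the same medians were 0.20 and 0.22, so TPM places all genes tested 0.27 higher in replicate 1 on the log2 scale than scaled counts do.

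Among the mitotic cyclins, the CDK1 gene and the phosphatases that activate CDK1, Ccna2 stood highest over all transcripts, though not on coding transcripts alone, where its mean of 79.9 TPM was below the 84.6 TPM of Ccnb2. Ccna2 (chromosome 3, 36564865 to 36572150, minus strand), which encodes cyclin A2, was at 1209 TPM in replicate 1 and 503 in replicate 2, and rank 1 of the 40 in each. Its scaled counts were 1.97-fold higher in replicate 1 over all transcripts, and 1.45-fold higher on coding transcripts alone. Of the B cyclins, Ccnb2 was at 98.4 TPM in replicate 1 and 70.9 in replicate 2, and Ccnb1 was at 8.80 TPM in replicate 1 and 3.71 in replicate 2. Ccnb2 was thus the more abundant cyclin B transcript in both libraries.

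Cdk1 (chromosome 10, 69335146 to 69352938, minus strand), the mitotic kinase itself, was at 5.77 TPM in replicate 1 and 98.2 in replicate 2. Its scaled counts were 5.72-fold lower in replicate 1, the largest difference of the set after that of Birc5, but on coding transcripts alone the difference was 1.29-fold. Cdc25b and Cdc25c, which remove inhibitory phosphates from CDK1, moved in opposite directions. Cdc25b was at 7.01 TPM in replicate 1 and 18.1 in replicate 2, 3.28-fold lower in replicate 1 in scaled counts, while Cdc25c was at 10.4 TPM in replicate 1 and 3.41 in replicate 2, 2.39-fold higher in replicate 1.

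The genes that drive and mark the exit from mitosis were led by the APC/C's own enzyme and activator. Ube2c (chromosome 2, 164769898 to 164778822, plus strand), the ubiquitin-conjugating enzyme that starts chains for the APC/C, was at 634 TPM in replicate 1 and 213 in replicate 2 and 2.36-fold higher in replicate 1 in scaled counts. Cdc20 (chromosome 4, 118432901 to 118437352, minus strand), the mitotic activator that the checkpoint restrains, was at 531 TPM in replicate 1 and 313 in replicate 2. Fzr1, the activator that follows Cdc20 in late mitosis and G1, was at 74.0 TPM in replicate 1 and 69.9 in replicate 2. The protease separase (Espl1), which cuts cohesin, was at 19.7 TPM in replicate 1 and 26.5 in replicate 2, above its inhibitor securin (Pttg1) at 8.23 TPM in replicate 1 and 7.01 in replicate 2. The difference of Pttg1 between libraries was not called (exact conditional binomial test, adjusted p = 0.381).

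Of the kinases of the centrosome and spindle, Plk1 was the most abundant. Plk1 (chromosome 7, 122159439 to 122169873, plus strand), the polo-like kinase of mitotic entry, was at 131 TPM in replicate 1 and 172 in replicate 2 and 1.67-fold lower in replicate 1 in scaled counts. Aurka, the aurora kinase of spindle poles, was at 17.2 TPM in replicate 1 and 23.4 in replicate 2. Its activator Tpx2 was at 53.8 TPM in replicate 1 and 30.5 in replicate 2, and Nek2, a kinase that separates centrosomes, at 25.1 TPM in replicate 1 and 21.8 in replicate 2. Tpx2 was higher in replicate 1 in TPM but 1.63-fold lower in scaled counts, and its mean effective length was 1508 bases in replicate 1 and 3379 bases in replicate 2. In all, 6 of the 40 genes (Aurkb, Fzr1, Incenp, Kif20a, Prc1 and Tpx2) differed in direction between scaled counts and TPM. Each was lower in replicate 1 in scaled counts and higher in TPM. TPM places all genes tested 0.27 higher in replicate 1 on the log2 scale than scaled counts do. The share of all genes tested that differed in direction was not counted.

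The spindle checkpoint genes covered a wide range of levels, from Bub3 down to Ttk. Bub3, which carries the checkpoint proteins to kinetochores, was at 58.0 TPM in replicate 1 and 97.2 in replicate 2 and 2.13-fold lower in replicate 1 in scaled counts. Bub1b, which encodes BUBR1, was at 22.3 TPM in replicate 1 and 33.6 in replicate 2, and the kinase gene Bub1 at 7.68 TPM in replicate 1 and 9.77 in replicate 2. These 3 BUB genes were all lower in replicate 1, and Bub1b and Bub1 came close to the 2-fold line at 1.98-fold and 1.94-fold. Mad2l1, which encodes the CDC20 inhibitor MAD2, was at 10.0 TPM in replicate 1 and 10.7 in replicate 2, and its difference was not called (exact conditional binomial test, adjusted p = 0.052). Ttk, which encodes the kinase MPS1 that starts checkpoint signalling, was lowest of the 40 in both libraries at 1.83 TPM in replicate 1 and 1.34 in replicate 2. Its difference was not called either (exact conditional binomial test, adjusted p = 0.147).

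The chromosomal passenger complex, which corrects faulty spindle attachments, had 3 subunits abundant over all transcripts and 1 that differed sharply between the libraries. Aurkb, its kinase, was at 298 TPM in replicate 1 and 233 in replicate 2, Cdca8 (borealin) at 349 TPM in replicate 1 and 148 in replicate 2, and the scaffold Incenp at 204 TPM in replicate 1 and 199.8 in replicate 2. These 3 genes exceeded 100 TPM in both libraries over all transcripts, and of them only Incenp did so on coding transcripts. Coding Aurkb was at 46.9 TPM in replicate 1 and 59.6 in replicate 2, and coding Cdca8 at 67.2 and 70.0. Cdca8 was 1.27-fold higher in replicate 1 in scaled counts over all transcripts, and 1.59-fold lower on coding transcripts alone. The remaining subunit is survivin, encoded by Birc5 (chromosome 11, 117849251 to 117855743, plus strand). Birc5 exceeded 100 TPM in replicate 2 only, at 9.84 TPM in replicate 1 and 152 in replicate 2. Its counts were 328 in replicate 1 and 6982 in replicate 2, and scaled to library size it was 12.9-fold lower in replicate 1. That was the largest difference among the 40 genes, and only 1 of the 4 subunits showed a difference of that size.

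Centromere and kinetochore genes split into 1 abundant gene and 4 low ones. Cenpa (chromosome 5, 30666777 to 30674830, plus strand), the histone H3 variant that marks centromeres, was at 732 TPM in replicate 1 and 341 in replicate 2, rank 2 in both libraries. The other 4 were at 6.22 TPM or less in either library. Ndc80 and Nuf2, which encode partner subunits of the complex that grips microtubules, were at 2.17 TPM in replicate 1 and 6.22 in replicate 2 and at 2.33 TPM in replicate 1 and 1.35 in replicate 2. Ndc80 was 3.61-fold lower in replicate 1 in scaled counts and Nuf2 1.49-fold higher, so the partners differed in direction. Cenpe, a kinetochore motor, was at 2.13 TPM in replicate 1 and 3.11 in replicate 2, and the large kinetochore protein gene Cenpf at 4.76 TPM in replicate 1 and 2.91 in replicate 2.

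Genes of spindle motors and microtubule binding were of low to moderate level. Kif11, the motor that pushes spindle poles apart, was at 14.1 TPM in replicate 1 and 5.99 in replicate 2. Kif2c, a kinesin that takes microtubules apart at their ends, was at 7.83 TPM in replicate 1 and 12.1 in replicate 2. Hmmr, which encodes a spindle pole protein, was at 2.70 TPM in replicate 1 and 2.18 in replicate 2 and its difference was not called (exact conditional binomial test, adjusted p = 0.543). Kif11 was higher and Kif2c lower in replicate 1, and neither reached 2-fold.

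The 6 genes of the central spindle and cytokinesis were divided, 3 higher and 3 lower in replicate 1. Racgap1 and Kif23 encode the 2 parts of centralspindlin, and Racgap1 was at 71.1 TPM in replicate 1 and 34.1 in replicate 2 while Kif23 was at 15.3 TPM in replicate 1 and 30.9 in replicate 2. Racgap1 was 1.48-fold higher and Kif23 2.58-fold lower in replicate 1 in scaled counts. Anln, the actin-binding scaffold anillin, was at 32.8 TPM in replicate 1 and 17.6 in replicate 2, and Prc1, which bundles midzone microtubules, at 22.8 TPM in replicate 1 and 19.8 in replicate 2. The midzone kinesin Kif20a was at 12.1 TPM in replicate 1 and 11.3 in replicate 2. Ect2, the exchange factor that activates RhoA at the cell equator, was the lowest of the group at 4.12 TPM in replicate 1 and 1.71 in replicate 2.

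The 2 genes of mitotic chromosomes moved apart. Top2a, the topoisomerase that untangles sister chromatids, was at 28.6 TPM in replicate 1 and 131 in replicate 2. Its scaled counts were 1.45-fold lower in replicate 1 over all transcripts, and 1.03-fold higher on coding transcripts alone, which was not called (exact conditional binomial test, adjusted p = 0.254). Mki67, which encodes the Ki-67 protein of the chromosome surface, was at 45.5 TPM in replicate 1 and 16.2 in replicate 2 and 2.19-fold higher in replicate 1 in scaled counts. With Ube2c and Cdc25c it made up the 3 genes at least 2-fold higher in replicate 1, and Birc5, Cdk1, Ndc80, Cdc25b, Kif23 and Bub3 were the 6 at least 2-fold lower, of which Cdk1 did not reach 2-fold on coding transcripts alone.

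For several of these genes the level and the difference rested on short transcript models that the annotation does not class as coding. Transcripts classed as protein-coding held 54.0% of the summed TPM of the 40 genes in replicate 1 and 63.1% in replicate 2, against 69.5% and 74.2% over all protein-coding genes. Models of retained introns held 25.3% and 19.5% of the summed TPM of the 40 genes, against 13.8% and 14.1%. Ccna2 alone held 984 TPM on such models in replicate 1 and 446 in replicate 2, of 4795 and 3098 TPM for the 40 genes. These summed shares therefore rest largely on Ccna2 and do not describe the set as a whole. The median share on coding transcripts was 98.2% in replicate 1 and 99.3% in replicate 2. Over detected protein-coding genes that median was 99.7% and 99.5%. By counts, in which longer transcripts weigh more than in TPM, coding transcripts held 73.9% in replicate 1 and 84.4% in replicate 2 for the 40 genes. Over all protein-coding genes they held 84.9% and 86.4%. Ccna2 weighs in this share too, with 7267 of its 29583 counts on coding transcripts in replicate 1 and 8293 of 24767 in replicate 2. All 40 genes held 164829 and 249958 counts, so the share by counts does not describe the set as a whole either. Under 50% of the TPM lay on coding transcripts in at least 1 library for 12 of the 40 genes (30%), beside 25.3% of the 8281 detected protein-coding genes. It was 9 genes in replicate 1, 8 in replicate 2 and 5 in both, while 23 genes had at least 90% on coding transcripts in both.

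The most abundant gene was the clearest case. Ccna2-202, a retained-intron model of 856 bases (chromosome 3, 36570451 to 36571964), held 81.4% of its TPM in replicate 1 and 88.8% in replicate 2. On the coding transcript alone, Ccna2 stood at 104 TPM in replicate 1 and 56.3 in replicate 2. Of the gene's expected counts, that model held 17571 of 29583 in replicate 1 and 16465 of 24767 in replicate 2. Of its bases, 66.7% lie in exons shared with the gene's coding transcripts. Ccna2-203, a model classed for nonsense-mediated decay, was at 120 TPM in replicate 1 and 0 in replicate 2.

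Cdk1 and Top2a differed in class between the libraries. Cdk1-204, a retained-intron model of 475 bases, was at 0 TPM in replicate 1 and 94.8 in replicate 2, that is 0% of its TPM in replicate 1 and 96.6% in replicate 2. On coding transcripts Cdk1 was at 5.53 TPM in replicate 1 and 3.21 in replicate 2, so its coding TPM was higher in replicate 1 whereas its whole TPM was lower. Top2a-202, a processed transcript of 632 bases, held 0% of its TPM in replicate 1 and 83.7% in replicate 2, and coding Top2a was at 26.8 TPM in replicate 1 and 20.4 in replicate 2. Both models were thus listed at 0 in replicate 1 and dominant in replicate 2.

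Other genes had such models in both libraries or in replicate 1. Aurkb-204 held 63.8% of its TPM in replicate 1 and 65.1% in replicate 2, and coding Aurkb was at 46.9 TPM in replicate 1 and 59.6 in replicate 2. Cdca8-203 held 80.7% of its TPM in replicate 1 and 52.7% in replicate 2, and coding Cdca8 was at 67.2 TPM in replicate 1 and 70.0 in replicate 2. Cenpa-202, a model classed for nonsense-mediated decay, held 35.1% of its TPM in replicate 1 and 46.5% in replicate 2, leaving coding Cenpa at 308 TPM in replicate 1 and 151 in replicate 2. These 3 genes had under 50% of their TPM on coding transcripts in both libraries, as did Ccna2 and Racgap1. In replicate 1, Fzr1-201 held 56.1%, Tpx2-203 58.8%, Racgap1-209 51.8%, Mad2l1-203 56.3% and Ect2-212 56.8% of the gene's TPM. In replicate 2 they held 0, 4.02%, 26.01%, 21.4% and 19.7%, and Nek2-203 held 44.6% there after 0 in replicate 1. Ect2 had no coding count in replicate 1 and 1.23 TPM on coding transcripts in replicate 2, the only 1 of the 40 genes below 1 TPM in a library on coding transcripts. Ect2 as a whole held 291 counts in replicate 1, of which 220.4 were placed on Ect2-212. Its coding count of 0 thus depends on how counts were shared among its transcripts, which a limit for counting error does not cover.

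**Figure D2:**
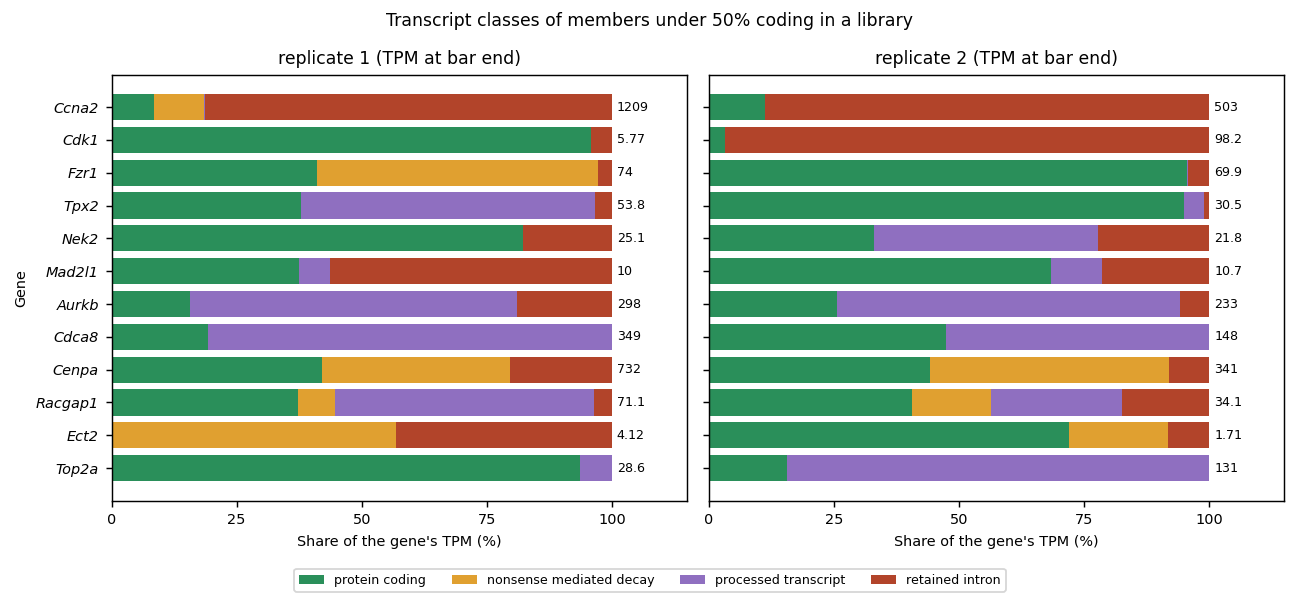
Share of each gene's TPM by transcript class, for the 12 genes with under 50% on coding transcripts in a library, in replicate 1 on the left and replicate 2 on the right, with the gene's whole TPM at the end of each bar. Cdk1 and Top2a have 95.8% and 93.7% on coding transcripts in replicate 1 and 3.27% and 15.6% in replicate 2, while Fzr1 and Tpx2 have the larger coding share in replicate 2.

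These models were chosen by their percent of the gene's TPM, in which short models weigh more, so their length is tied to that choice. The length, position and overlap given next were not counted for the top models of other genes. A model not classed as protein-coding was the top transcript of 12 genes in at least 1 library, and 8 of these 12 models were shorter than 1000 bases, with a range of 380 to 3935 bases. The midpoint of 10 of the 12 lay in the 5′ part of the gene, before the middle of its length. None overlapped an exon of another gene, and between 59.7% and 100% of their bases lay in coding exons of their own gene. The top transcript was the same in both libraries for 32 of the 40 genes. Of the 28 genes with more than 1 transcript it differed in 8 (28.6%), namely Cdk1, Ect2, Fzr1, Mad2l1, Nek2, Racgap1, Top2a and Tpx2, beside 26.9% of the 6389 detected genes with more than 1 transcript.

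On coding transcripts the order of levels changed. The highest were Ube2c, Cdc20, Cenpa, Incenp, Plk1, Ccnb2, Birc5, Ccna2, Bub3 and Cdca8, and Ccna2 moved to rank 8. The median coding TPM was 18.3 in replicate 1 and 17.4 in replicate 2, against 13.8 and 13.6 over detected protein-coding genes. Between the libraries, 7 of the 40 genes (Aurkb, Cdca8, Cdk1, Ect2, Fzr1, Top2a and Tpx2) differed in direction between whole and coding TPM. The share of detected protein-coding genes that did so was not counted, so this number cannot be read as a trait of the set. In scaled coding counts 4 genes were at least 2-fold higher in replicate 1 (10%), beside 6.33% of detected protein-coding genes, and 9 were at least 2-fold lower (22.5%), beside 20.8%. The 4 were Ube2c, Cdc25c, Mki67 and Nek2, the last at 2.25-fold. Among the 9 were Mad2l1 at 2.12-fold, Bub1 on the line at 2.00-fold, and Ect2, which had no coding count in replicate 1. By this measure Cdk1 was 1.29-fold lower in replicate 1, and Fzr1 was 2.80-fold lower. Birc5, Ndc80, Kif23, Bub3, Ube2c, Cdc25c and Mki67 had all of their TPM on coding transcripts, so their differences did not depend on this choice.

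**Figure D3:**
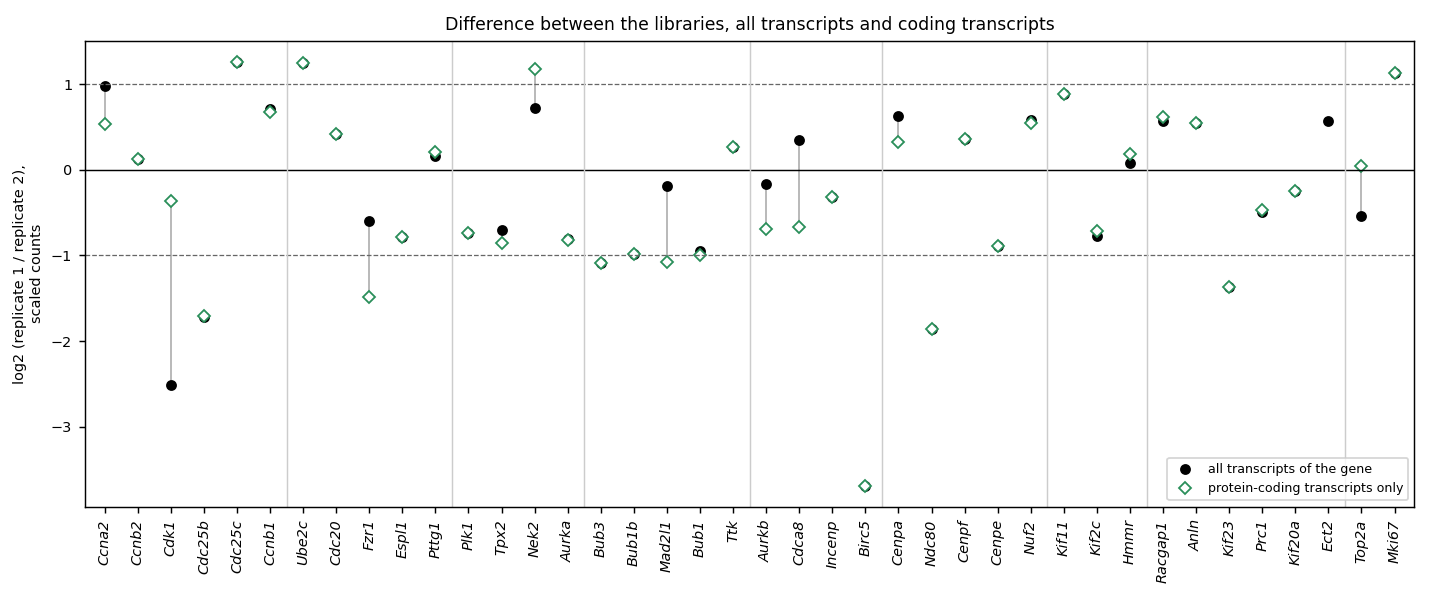
The log2 ratio of scaled counts, replicate 1 over replicate 2, for each of the 40 genes, with a filled circle for all transcripts and an open diamond for coding transcripts; dashed lines mark 2-fold and Ect2 has no diamond because it had no coding count in replicate 1. Birc5 lies lowest at -3.68 by either measure, while Cdk1 lies at -2.52 over all transcripts and at -0.37 on coding transcripts.

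Related genes were set against each other within each library as log2 ratios of TPM with a pseudocount of 1. The direction was the same in both libraries for 11 of the 14 pairs. Ccnb1 over Ccnb2 was -3.34 in replicate 1 and -3.93 in replicate 2, Aurka over Aurkb was -4.04 in replicate 1 and -3.26 in replicate 2, and Cdc20 over Fzr1 was 2.83 in replicate 1 and 2.15 in replicate 2. Cdc20 therefore exceeded Fzr1, the later activator, in both. Plk1 over Plk4, the kinase of centriole duplication, was 1.28 in replicate 1 and 3.16 in replicate 2, Kif20a over Kif20b was 2.03 in replicate 1 and 1.28 in replicate 2, and Pttg1 over Espl1 was -1.16 in replicate 1 and -1.78 in replicate 2. Bub1 over Bub1b was -1.42 in replicate 1 and -1.69 in replicate 2, and Kif2c over Kif2a, a related kinesin of non-dividing cells too, was -1.29 in replicate 1 and -2.49 in replicate 2. Some of these ratios rest on the transcripts counted. On coding transcripts the mean of both libraries was -1.38 in place of -3.65 for Aurka over Aurkb, -0.49 in place of -1.89 for Kif2c over Kif2a and 5.08 in place of 2.22 for Plk1 over Plk4.

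In 3 pairs the libraries disagreed. Top2a over Top2b, the topoisomerase found outside the cycle as well, was -1.53 in replicate 1 and 2.04 in replicate 2. The non-coding model Top2a-202 was at 0 TPM in replicate 1 and 109.6 in replicate 2. Coding Top2a was at 26.8 TPM in replicate 1 and 20.4 in replicate 2, and on coding transcripts the mean of this pair was negative. Cdc25b over Cdc25c was -0.51 in replicate 1 and 2.11 in replicate 2, and Ndc80 over Nuf2 was -0.071 in replicate 1 and 1.62 in replicate 2. The relatives Ccna1, Aurkc, Kif2b, Cdc20b and Plk2 had no count in either library, which allows up to 3 counts in each, and Ccnb3 had 1 count in replicate 1 only. No test of the pairs was run, and the values are descriptions.

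The other genes of the mitotic machinery were measurable in these cells as well. Of 16 APC/C subunits and inhibitors, 15 reached 1 TPM in both libraries, led by Ube2s, the enzyme that extends ubiquitin chains after Ube2c, at 1488 TPM in replicate 1 and 625 in replicate 2. Anapc11, the catalytic RING subunit, was at 98.2 TPM in replicate 1 and 266 in replicate 2, and Anapc10 was lowest at 0.59 TPM in replicate 1 and 0.24 in replicate 2. In this list 6 genes were called higher in replicate 1, 9 lower and 1 not called. Over all genes tested 37.4% were called higher and 43.3% lower, and the counts of the lists below are to be read beside these shares. Of 32 other kinetochore and centromere genes, 29 reached 1 TPM in both, with Pmf1 at 442 TPM in replicate 1 and 301 in replicate 2, Cenpm at 143 TPM in replicate 1 and 101.2 in replicate 2 and Cenpk lowest at 1.10 TPM in replicate 1 and 0.45 in replicate 2. Here 17 were called higher, 12 lower and 3 not called, and the median log2 ratio was 0.18.

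Condensin, the complex that folds mitotic chromosomes, was detected in full, with all 8 subunits at 1 TPM or more in both libraries. Ncapd2 was at 177 TPM in replicate 1 and 292 in replicate 2, Smc4 at 228 TPM in replicate 1 and 136 in replicate 2 and Ncapd3, lowest, at 3.32 TPM in replicate 1 and 3.81 in replicate 2. Of the 8, 1 was called higher in replicate 1, 6 lower and 1 was not called, beside 37.4% higher and 43.3% lower over all genes tested. All 10 other checkpoint and cohesion guards were detected, from Cdca3 at 77.0 TPM in replicate 1 and 54.8 in replicate 2 and Sgo1, which encodes shugoshin, at 41.0 TPM in replicate 1 and 76.4 in replicate 2 to Sgo2a, lowest by mean TPM, at 8.83 TPM in replicate 1 and 3.04 in replicate 2. Of these 5 were called higher and 5 lower.

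Among 10 genes of mitotic entry and exit, 8 were detected in both libraries. The CDK1-binding subunit Cks2 was at 38.1 TPM in replicate 1 and 289 in replicate 2, 9.43-fold lower in replicate 1 in scaled counts, while its relative Cks1b was at 104 TPM in replicate 1 and 107 in replicate 2. Cdc14b was lowest at 0.15 TPM in replicate 1 and 0.080 in replicate 2. In that list 3 genes were called higher, 6 lower and 1 not called.

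All 24 other genes of the spindle, centrosome and cytokinesis were detected. Rhoa, the GTPase that Ect2 activates, was at 144 TPM in replicate 1 and 124 in replicate 2, Knstrn at 147 TPM in replicate 1 and 87.9 in replicate 2 and Kif14, lowest by mean TPM, at 1.29 TPM in replicate 1 and 1.69 in replicate 2, with 7 genes called higher, 13 lower and 4 not called. Of 13 regulators of the mitotic gene program, 11 were detected. Lin37, a MuvB subunit, was at 86.5 TPM in replicate 1 and 129 in replicate 2, Mybl2, which encodes the activator B-MYB, at 91.5 TPM in replicate 1 and 108 in replicate 2, and Lin52, also of MuvB and lowest by mean TPM, at 0.36 TPM in replicate 1 and 0.61 in replicate 2. In this last list 5 genes were called higher, 7 lower and 1 not called. The list of meiotic and tissue-restricted relatives, 11 genes, was mixed in level, and its name does not describe every gene in it. In both libraries 4 were detected (Top2b, Kif2a, Cdc25a and Plk3) and 5 were at 0 counts.

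**Figure D4:**
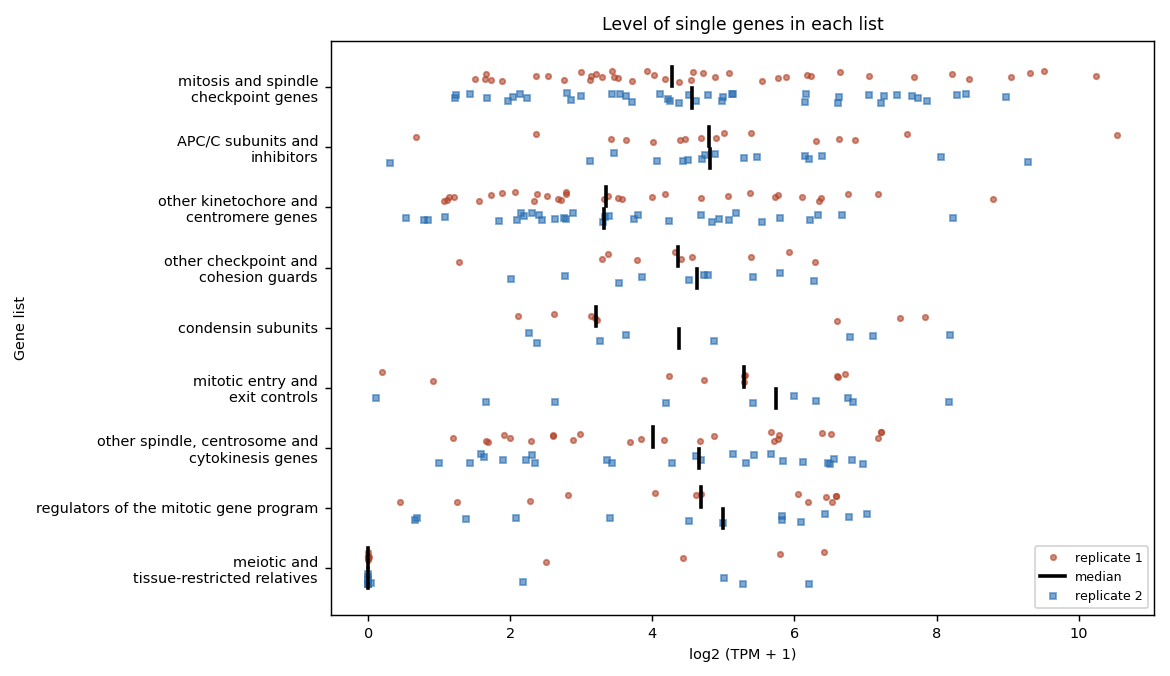
Level of each gene in log2(TPM + 1), each row a gene list with replicate 1 above replicate 2; points are single genes, jittered in height, and black bars are medians. The medians of the mitotic lists lie between 8.24 and 52.2 TPM, and the list of meiotic and tissue-restricted relatives has its median at 0.

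The promoters of the 40 genes were searched for the CHR, since it is the known element of late cell cycle genes, and for the box bound by NF-Y, which often accompanies it. RefSeq promoter windows on GRCm38.p6, from 250 bases before to 50 after the start that RefSeq annotates, were held for 34 of the 40 genes. Aurkb, Ccna2, Cdc25c, Incenp, Kif20a and Tpx2 were not in the table. The letters TTTGAA, on either strand, were found for 24 of the 34 genes (70.6%), against 20.2% of the 27025 genes of the table and 13.7% of the detected protein-coding genes in it. The variant TTCGAA was found for 4 of the 34 (11.8%), against 1.80% of the 27025. The letters CCAAT, on either strand, were found for 27 (79.4%), against 41.1%, and both TTTGAA and CCAAT for 21 (61.8%), against 7.97%. A match of letters is a description and not a bound site, and the reverse strand of CCAAT can overlap TTTGAA, as it does in Cdca8.

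Of the 10 genes with the highest mean TPM, 6 hold TTTGAA in their window, and their stretches from 100 bases before to 50 after the start are shown with it, because they carry the shared pattern. Birc5, which is also among the 10 and has none of the 3 motifs there, follows for contrast. Motif letters on either strand are in capitals.
Cenpa, chr5:30666786-30666935, plus strand: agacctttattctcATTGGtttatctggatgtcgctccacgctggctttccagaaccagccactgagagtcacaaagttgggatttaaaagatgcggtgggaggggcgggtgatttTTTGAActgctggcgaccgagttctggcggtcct
Ube2c, chr2:164769829-164769978, plus strand: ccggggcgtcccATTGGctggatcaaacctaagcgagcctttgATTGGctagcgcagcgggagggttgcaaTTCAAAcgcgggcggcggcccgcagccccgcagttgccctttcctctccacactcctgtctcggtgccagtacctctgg
Cdc20, chr4:118437294-118437443, minus strand: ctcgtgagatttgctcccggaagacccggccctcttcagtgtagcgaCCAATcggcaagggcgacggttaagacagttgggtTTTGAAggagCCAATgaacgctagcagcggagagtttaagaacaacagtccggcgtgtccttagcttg
Cdca8, chr4:124936868-124937017, minus strand: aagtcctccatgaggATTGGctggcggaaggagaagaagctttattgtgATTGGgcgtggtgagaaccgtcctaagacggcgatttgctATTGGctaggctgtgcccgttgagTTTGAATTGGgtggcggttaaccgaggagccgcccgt
Plk1, chr7:122159335-122159484, plus strand: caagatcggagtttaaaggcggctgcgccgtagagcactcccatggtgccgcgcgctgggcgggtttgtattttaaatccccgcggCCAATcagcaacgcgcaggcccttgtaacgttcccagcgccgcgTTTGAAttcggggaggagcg
Ccnb2, chr9:70421505-70421654, minus strand: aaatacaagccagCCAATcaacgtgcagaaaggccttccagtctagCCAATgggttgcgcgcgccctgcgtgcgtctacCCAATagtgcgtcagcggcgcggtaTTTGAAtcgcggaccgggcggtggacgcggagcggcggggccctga
Birc5, chr11:117849137-117849286, plus strand: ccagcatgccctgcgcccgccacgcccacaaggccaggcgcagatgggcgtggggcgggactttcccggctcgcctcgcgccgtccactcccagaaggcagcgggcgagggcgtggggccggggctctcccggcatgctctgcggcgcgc

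The matches gathered around the start. Of 30 TTTGAA matches in the windows of these genes, 23 lay within 50 bases of the start, at a median offset of -1.5 bases, and 22 genes (64.7%) had such a match against 5.72% of all genes of the table. Upstream of 24 of the matches lay a CCAAT match, at a median spacing of 31.5 bases, and in 14 of the 24 the spacing was between 25 and 45 bases. In Cdc20 the TTTGAA match began 18 bases before the start with a CCAAT match 35 bases upstream of it, and in Ube2c it began 29 bases before the start with a CCAAT match 28 bases upstream. Ccnb2 had its match from 4 bases after the start, 25 bases below a CCAAT match.

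The 10 genes with no TTTGAA in the window were Birc5, Bub1, Ccnb1, Cdc25b, Cenpe, Fzr1, Mad2l1, Nek2, Nuf2 and Pttg1. Their median of mean TPM was 9.55, and that of the 24 genes with the match was 26.6. The letters were also found for 5 of 7 condensin genes with a window (71.4%), a share like that of the 40 genes, 14 of 22 other spindle genes, 12 of 27 other kinetochore genes, 4 of 10 regulators of the mitotic gene program, 3 of 8 checkpoint and cohesion guards, 3 of 8 genes of mitotic entry and exit, 3 of 15 APC/C genes and 0 of 11 meiotic and tissue-restricted relatives.

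**Figure D5:**
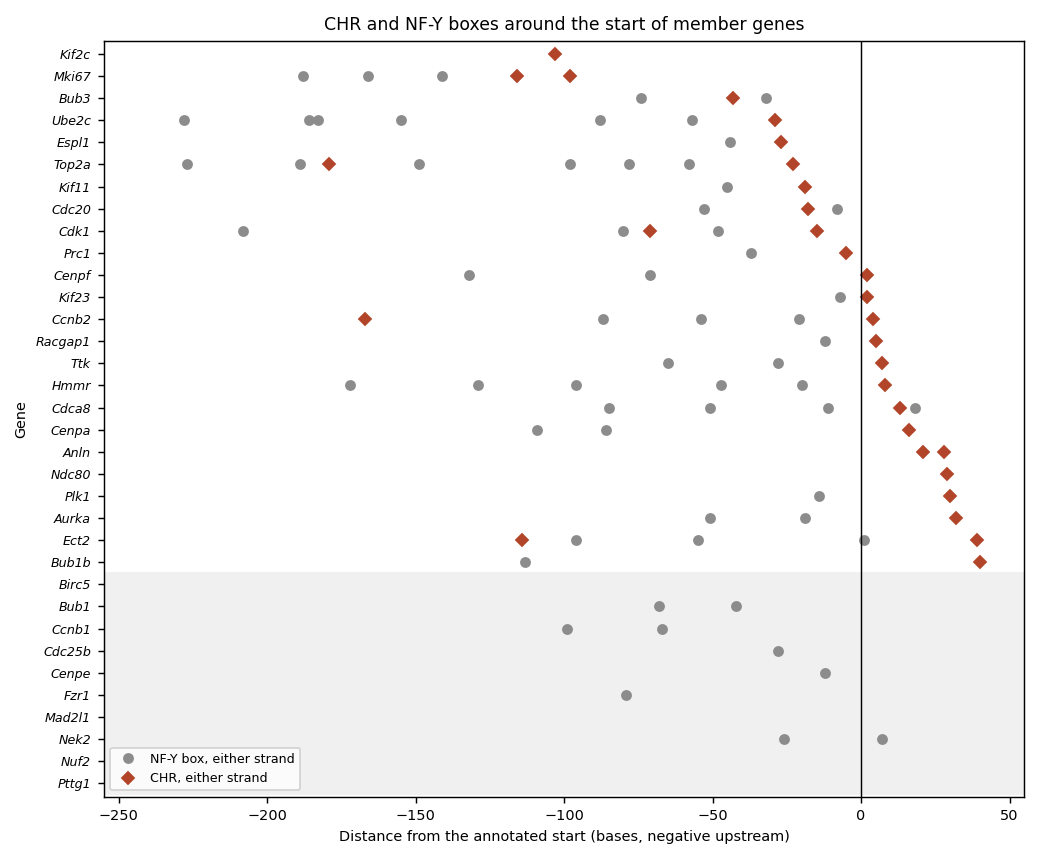
Distance in bases from the annotated start of each CHR match (diamonds) and each NF-Y box match (circles), on either strand, in the windows of 34 genes; white rows have a CHR match and are ordered by the match nearest the start, and grey rows have none. Most diamonds lie within 50 bases of the start and most circles lie upstream of them.

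The 40 genes are spread over the genome. Chromosome 2 carries 6 of them, chromosome 11 carries 5, and chromosomes 7 and 9 carry 4 each. Birc5, with the largest difference between the libraries, and Top2a, Aurkb, Hmmr and Pttg1 are those on chromosome 11.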

How the data were processed

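The authors aligned reads to mm10 and quantified genes and transcripts on GENCODE M4, per the text deposited with the tables; the names of aligner and quantifier were not given in the sources used here. The deposited expected counts are estimated fragments per feature, not normalised. The deposited TPM and FPKM are scaled to effective length, per the file headers, and the deposited transcript tables give each transcript as a percent of its gene's TPM. Replicates were not pooled. Identifiers were matched to GENCODE M21 on GRCm38 (42462 of 43346 genes), which gave coordinates and transcript classes; M4 was not used here, so gene models may differ. Promoters came from RefSeq.

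The 97 spike-in rows had no count, and 26248 rows named by number, with 1 count in replicate 1, were left out. Expected counts were rounded for the test. Library sizes used TMM factors (edgeR 4.0.16); DESeq2 1.42.0 size factors were an alternative. With 1 library a side no quasi-likelihood fit has residual degrees of freedom, so the exact conditional binomial test was run (scipy 1.17.1), at an adjusted p of 0.05, with a prior count of 2 in ratios. It was tested on simulated data. Count limits cover counting error only. Posterior mean counts, TPM and percents, also deposited, served as alternatives.

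The members, gene lists, pairs and tests were chosen with earlier results of these data known. Named are all 40 members, the 2 highest and the lowest gene of each other list by mean TPM, genes of the pairs, and top transcripts of members that are not coding or differ between libraries. Marker genes and relatives at 0 counts were also named after their values were seen.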

Additional observations from a re-analysis of the deposited data

How the results depend on the processing

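No paired analysis was possible because both libraries belong to a single group. Leaving out a library leaves no difference between libraries to compute, and no dominant transcript to compare. Without a library, the median level of the 40 genes lay between 18.4 and 22.6 TPM, and 40 genes were detected either way. Genes detected stayed at 40 with posterior mean TPM and FPKM, and came to 31 at 5 TPM in both libraries.

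Library totals without TMM factors move all genes tested by 0.17 on the log2 scale. With them, genes at least 2-fold higher in replicate 1 came to 5 in place of 3, the median difference to -0.0042 in place of -0.18, and Aurkb turned to 0.011 and was no longer called (exact test, adjusted p = 0.672). Genes at least 2-fold lower came to 5 in place of 6, since Bub3 moved to -0.92. Hmmr and Ttk then passed the exact test, higher in replicate 1, and Kif20a no longer passed. In TPM the median difference reversed to 0.20. Coding transcripts alone, an alternative chosen after seeing the data, gave a median difference of -0.34, and 39 genes detected. Mad2l1 then passed the exact test, lower in replicate 1. They turned the sign of Cdca8 to -0.66, of Top2a to 0.038, which was not called (exact test, adjusted p = 0.254), and of Ect2 to -6.67, a value that depends on the prior count because Ect2 had no coding count in replicate 1. They also reversed Top2a over Top2b to -1.10 and moved 6 other pairs beyond the spread between libraries, among them Cdc20 over Fzr1 to 3.15. A pseudocount of 0.1 moved 3 pairs, each with a partner at or near 0 counts. Pairs whose direction differs between libraries ranged, over the single libraries, from -1.53 to 2.04 for Top2a over Top2b, from -0.51 to 2.11 for Cdc25b over Cdc25c and from -0.071 to 1.62 for Ndc80 over Nuf2. The cause of each of these shifts was not tested beyond the construction of the alternative. DESeq2 size factors and no minimum count changed the call of none of the 40 genes, and posterior mean counts changed that of Mad2l1 only, which passed at an adjusted p of 0.0487 by the exact test.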
